A study of Mus musculus with 3 samples.

Results

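The genes described here encode the muscle acetylcholine receptor and the core of the postsynaptic side of the neuromuscular junction: the 5 receptor subunit genes Chrna1, Chrnb1, Chrnd, Chrne and Chrng, the kinase gene Musk, its co-receptor gene Lrp4, its adaptor gene Dok7, the receptor scaffold gene Rapsn and the esterase gene Ache. They were chosen by name, and their probes were found through the RefSeq accession printed for each spot. All 10 genes were on the array, out of 18352 genes that could be named, and they had 14 of its 41174 non-control probes. Of these genes, 6 had 1 probe and 4 had 2 probes (Chrna1, Chrne, Chrng and Lrp4). The brighter probe of each gene was well above background on all 3 arrays, so each comparison below covers all 10 genes, and no spot of theirs was saturated.

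All RNA was from C2C12 cells, an established line of mouse muscle precursors (myoblasts) whose cells join into multinucleate myotubes once serum is lowered. The first group was myoblasts left untreated. The second, called BIO cellulates here, began as myotubes formed over 8 days in medium with 2% horse serum, with the cytosine analogue AraC at 10 µM between days 2 and 4. These myotubes were split into single cells, or cellulates, with the microtubule-binding compound myoseverin, and were exposed to BIO, an inhibitor of the kinase GSK-3. The third group, called neurogenic cellulates, had the same treatments followed by the aryl-purine reversine (250 nM, 48 h) and by 7 days in neural induction medium that held N2 and, at 1.5 µM, all-trans retinoic acid. The sources disagree on doses: BIO is given as 2.5 µM for 2 days on the samples and as 10 µM elsewhere, and myoseverin as 20 µM for 48 h or as 30 µM. Each group was 1 array of 1 sample, with no array of intact myotubes and none of cellulates without BIO among those analysed, and nothing in the sources says that nerve cells were added. Differentiation, AraC, myoseverin and BIO therefore cannot be told apart in the first comparison, nor in the second can reversine, retinoic acid, the change of medium and the added days.

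As background, the acetylcholine receptor of muscle is a pentamer of 2 alpha subunits with beta and delta subunits and either the gamma subunit of embryonic and non-innervated muscle or the epsilon subunit of the adult endplate. Agrin released by the motor nerve binds LRP4, which activates the kinase MuSK; with the adaptor DOK7, MuSK signalling lets rapsyn gather receptors into dense clusters. Acetylcholinesterase ends the signal by splitting acetylcholine. In muscle, transcription of the receptor subunit genes is known to depend on myogenic factors of the MyoD family, which bind the E-box (letters CANNTG), and, for the epsilon gene at endplates, on ETS factors that bind the N-box (letters CCGGAA).

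Promoter letters are shown as background, these being the windows in which the known E-box and N-box letters would be read. A link between the letters and the differences between the arrays was not tested. RefSeq windows of assembly GRCm38.p6 were held for 7 of the 10 genes; the genes without one were Chrnd, Rapsn and Lrp4. Each window below is the 250 bases before the annotated start, 5′ to 3′ on the strand of the gene, with E-box and N-box letters in capitals. The first is Chrna1, minus strand, chr2:73580339-73580588; the second Chrnb1, minus strand, chr11:69795938-69796187; the third Chrng, plus strand, chr1:87205561-87205810; the fourth Chrne, minus strand, chr11:70619195-70619444.
Chrna1: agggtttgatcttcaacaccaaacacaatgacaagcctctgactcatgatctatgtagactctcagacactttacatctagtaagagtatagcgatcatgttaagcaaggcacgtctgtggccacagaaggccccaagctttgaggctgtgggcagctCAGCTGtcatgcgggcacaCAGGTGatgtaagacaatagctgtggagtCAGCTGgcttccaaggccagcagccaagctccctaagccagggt
Chrnb1: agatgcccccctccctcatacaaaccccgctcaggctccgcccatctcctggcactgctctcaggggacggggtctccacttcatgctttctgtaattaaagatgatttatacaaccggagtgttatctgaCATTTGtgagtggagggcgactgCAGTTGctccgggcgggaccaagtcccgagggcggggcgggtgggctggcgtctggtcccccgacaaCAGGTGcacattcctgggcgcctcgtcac
Chrng: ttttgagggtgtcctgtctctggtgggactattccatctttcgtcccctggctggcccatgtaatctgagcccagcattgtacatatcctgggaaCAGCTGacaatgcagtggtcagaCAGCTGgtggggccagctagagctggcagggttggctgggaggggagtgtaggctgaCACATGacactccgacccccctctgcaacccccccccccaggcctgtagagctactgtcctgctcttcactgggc
Chrne: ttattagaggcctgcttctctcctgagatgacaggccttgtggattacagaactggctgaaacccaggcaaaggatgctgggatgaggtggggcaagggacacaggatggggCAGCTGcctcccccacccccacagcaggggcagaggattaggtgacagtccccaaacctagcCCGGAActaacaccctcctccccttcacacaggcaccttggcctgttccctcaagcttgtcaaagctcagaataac

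Counted back from the start, with -1 as the base before it, the Chrna1 window held 3 E-boxes: CAGCTG at -92 to -87, CAGGTG at -73 to -68 and CAGCTG at -44 to -39. The Chrng window also held 3, CAGCTG at -155 to -150 and again at -132 to -127, and CACATG at -75 to -70. Chrnb1 had 3 E-boxes as well, spelled CATTTG (-119 to -114), CAGTTG (-96 to -91) and CAGGTG (-29 to -24), and none with the core of the Chrng pair. Chrne had 1 E-box, CAGCTG at -138 to -133, and was the only one of the 8 windows searched for these genes (Dok7 has 2) with N-box letters, CCGGAA at -76 to -71. No E-box overlapped an N-box. Both strands were read, the E-box pattern being its own reverse complement. Over all 32851 RefSeq windows of this length, 66.2% held at least 1 E-box, 12.2% at least 3, 13.0% at least 1 CAGCTG and 1.26% at least 2 CAGCTG, and 3952 of the windows held an N-box. Among the 8 windows of these genes, 4 held at least 3 E-boxes and 2 held at least 2 CAGCTG. Musk held 3 E-boxes, and Dok7 and Ache 1 each. These counts describe letters in the windows and show no binding.

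Each signal below is scaled: the scanner's background-subtracted intensity divided by the 75th percentile of its array, so that 1 is the signal of the probe at that percentile. On the log2 scale this value is the log2 scaled signal, and the difference between 2 arrays is a log2 ratio. The error after ± is the scanner software's own estimate for the spots, combined over both arrays, with n = 1 array per group; it holds nothing of the spread between cultures, which no sample here measures, so there is no p-value. As a second measure of spot error, 122 probes printed up to 10 times on each array gave the limit within which 95% of single-spot differences would lie: 1.40-fold when BIO cellulates were set against myoblasts, 1.34-fold between both cellulate arrays and 1.35-fold when neurogenic cellulates were set against myoblasts. Between 45.7% and 50.7% of the 43379 non-control spots of an array were well above background.

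The first comparison asked how muscle cells that had been through fusion, cellularisation and BIO differed from the myoblasts. BIO cellulates had more RNA of most receptor subunit genes, led by both alternative subunits, gamma (Chrng, 4.97-fold) and epsilon (Chrne, 4.41-fold). The alpha (Chrna1, 2.98-fold) and delta (Chrnd, 2.32-fold) subunit genes were also higher, as were the agrin receptor gene Lrp4 (2.08-fold) and the esterase gene Ache (2.06-fold). The beta subunit gene Chrnb1, the kinase gene Musk and the scaffold gene Rapsn lay inside the single-spot limit. In all, 6 of 10 genes were higher by 2-fold or more and 0 were lower by as much, beside 11.2% higher and 6.0% lower of 12831 genes compared. The median log2 ratio of the 10 genes was 1.05, against 0.00 for all genes compared. RNA of a whole culture was measured, so more RNA per cell and more cells of a fused type cannot be told apart. The 2-fold count depended on the processing. With arrays scaled to their median it was 2 of 10 (Chrne and Chrng), beside 2.84% of all genes compared. The medians of the 3 arrays, 17.1, 17.8 and 24.4 intensity units, lay near their lowest signals well above background (13.6, 17.3 and 26.2). Median scaling, here and below, therefore rests on spots near background. With normexp background correction it was again 2 of 10 (the same genes), beside 2.32%. This correction adds an offset of 50 units to each spot, which draws the ratios of dim genes, Chrna1 and Chrnd among them, towards 0.

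**Figure D1:**
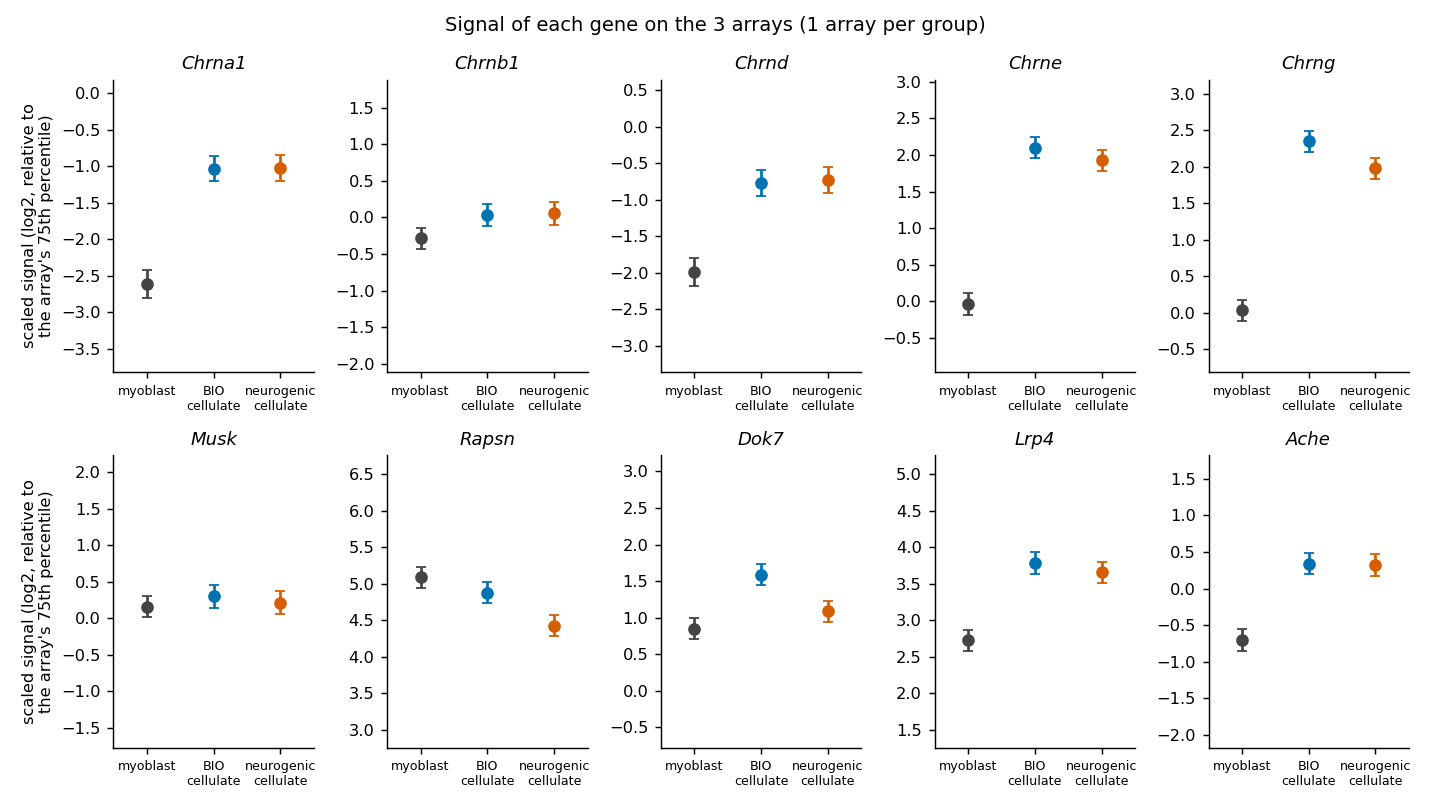
Scaled signal of the 10 genes (y axis, log2 relative to the 75th percentile of the array) on the 3 arrays, 1 array per group; bars are the scanner software's error of the spot, and each panel spans the same number of log2 units around its own centre. The myoblast point is the highest for Rapsn and the lowest for the other 9 genes, but several of these gaps are inside the single-spot limit: those of Musk and Chrnb1 to both cellulate arrays, of Dok7 to neurogenic cellulates and of Rapsn to BIO cellulates.

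Among the receptor subunits, Chrna1, which encodes the acetylcholine-binding alpha subunit, had scaled signals of 0.163 in myoblasts, 0.488 in BIO cellulates and 0.492 in neurogenic cellulates. Myoblasts stood apart from both cellulate arrays, which did not differ beyond spot error. The log2 ratio of BIO cellulates to myoblasts was 1.58 ± 0.26, higher than that of 96.2% of genes compared. Its spot was dim in myoblasts, at 29.6 intensity units, where the lowest signal well above background was 13.6.

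Chrnd, the delta subunit gene, had the same order from a similar brightness, with scaled signals of 0.253 in myoblasts, 0.586 in BIO cellulates and 0.601 in neurogenic cellulates. Its log2 ratio in the first comparison was 1.21 ± 0.26. Chrnb1, the beta subunit gene, had scaled signals of 0.821, 1.03 and 1.04 in the same order of arrays, and none of these levels differed beyond spot error. The log2 ratio of Chrnb1 was 0.32 ± 0.21 in the first comparison, and it turned to -0.40 with median scaling. Relative to each other, Chrna1 was 2.39-fold higher against Chrnb1 in BIO cellulates than in myoblasts. This contrast was 1.42-fold with normexp correction, whose offset draws the ratio of the dim Chrna1 spot towards 0, and 1.86-fold with quantile normalisation.

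Chrng, the gamma subunit gene of embryonic receptors, had a scaled signal of 1.02 in myoblasts, 5.08 in BIO cellulates and 3.94 in neurogenic cellulates. Chrne, the epsilon subunit gene of adult endplate receptors, had scaled signals of 0.972, 4.29 and 3.80. For both genes the 2 cellulate arrays were far above the myoblast array and within the single-spot limit of each other. Chrng gave a log2 ratio of 2.31 ± 0.21 and Chrne of 2.14 ± 0.21 in the first comparison, the largest of the 10 genes, and only 132 and 163 of the genes compared had larger ones. The log2 ratios of these alternative subunits differed by 0.17 there (Chrng larger) and by 0.02 for neurogenic cellulates against myoblasts (Chrne larger), less than their scanner errors. Chrng and its neighbour on mouse chromosome 1, Chrnd, differed in the first comparison by 1.10 on the log2 scale, with Chrng the larger. With the median over probes the difference was -0.06. There the second Chrng probe, not well above background in BIO cellulates, entered as a bound set to 0, so -0.06 measures no smaller gap.

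The receptor arm of agrin signalling was split. Lrp4, which encodes the agrin receptor, had scaled signals of 6.62 in myoblasts, 13.8 in BIO cellulates and 12.6 in neurogenic cellulates. Musk, the kinase it activates, had scaled signals of 1.11, 1.23 and 1.16, which did not differ beyond spot error on any pair of arrays. The log2 ratio of Lrp4 to myoblasts was 1.06 ± 0.20 in BIO cellulates, while that of Musk was 0.14 ± 0.21. With median scaling these were 0.34, inside the single-spot limit, and -0.58. Musk minus Lrp4 was -0.92 under both scalings, which shift both genes alike and so cannot test this gap. It was -1.05 with quantile normalisation and -0.83 with normexp correction. Dok7, the adaptor that binds MuSK inside the cell, had scaled signals of 1.80, 3.01 and 2.12. Dok7 was thus highest in BIO cellulates, with a log2 ratio to myoblasts of 0.74 ± 0.21, past the spot limit but short of 2-fold.

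Rapsn, whose product tethers receptors to each other and to the cytoskeleton, was the only 1 of the 10 genes with its highest signal in myoblasts, with scaled signals of 33.9 there, 29.4 in BIO cellulates and 21.5 in neurogenic cellulates. The log2 ratio of BIO cellulates to myoblasts was -0.21 ± 0.20, inside the spot limit. Set against the alpha subunit on the same arrays, Rapsn was 3.44-fold lower relative to Chrna1 in BIO cellulates than in myoblasts, and 4.76-fold lower in neurogenic cellulates. With quantile normalisation these contrasts were 2.38-fold and 2.74-fold, and with normexp correction 2.41-fold and 3.02-fold. Relative to genes of like brightness they were 2.49-fold and 3.05-fold. Ache, the esterase gene, had scaled signals of 0.616 in myoblasts, 1.27 in BIO cellulates and 1.26 in neurogenic cellulates, with a log2 ratio of 1.04 ± 0.21 in the first comparison. It resembled Lrp4 in that the myoblast array alone stood apart.

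**Figure D2:**
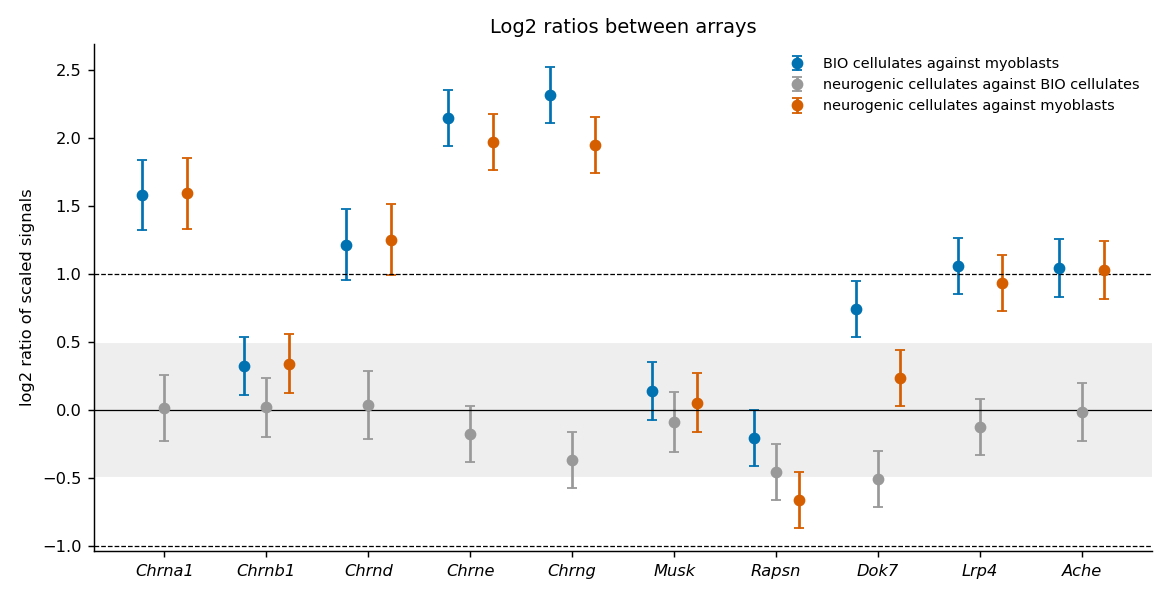
Log2 ratios of scaled signals (y axis) for the 10 genes in 3 comparisons, each point 1 pair of arrays; bars are the combined scanner error, dashed lines mark 2-fold, and the grey band is the widest single-spot limit of the 3 comparisons (0.48 on the log2 scale). In both comparisons with myoblasts Chrng, Chrne, Chrna1, Chrnd and Ache lie above 2-fold, and all grey points, for neurogenic against BIO cellulates, lie within 2-fold.

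The second comparison asked what neural induction after reversine, with retinoic acid, changed in BIO cellulates. None of the 10 genes was at least 2-fold higher or lower in neurogenic cellulates, beside 4.14% higher and 1.79% lower of 12258 genes compared. The median log2 ratio of the 10 genes was -0.11, against -0.17 for all genes compared. The receptor subunits kept close to their BIO cellulate levels, with log2 ratios of 0.01 ± 0.24 for Chrna1, 0.02 ± 0.22 for Chrnb1, 0.04 ± 0.25 for Chrnd, -0.17 ± 0.20 for Chrne and -0.37 ± 0.20 for Chrng. Only Dok7 (1.42-fold lower) and Rapsn (1.37-fold lower) passed the single-spot limit. Measured against genes of their own brightness, these were lower by 0.32 and 0.17 on the log2 scale, both within that limit. Musk (-0.09 ± 0.22), Lrp4 (-0.12 ± 0.20) and Ache (-0.01 ± 0.21) had log2 ratios near 0. The signs of the smallest ratios, those of Chrna1, Chrnb1, Chrnd, Chrne, Musk, Lrp4 and Ache, turned under at least 1 of the other settings and carry no direction.

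The third comparison set neurogenic cellulates against myoblasts; it shares an array with each of the others and is not independent of them. Here 5 of 10 genes were higher by 2-fold or more and 0 were lower by as much, beside 12.1% higher and 10.0% lower of 12856 genes compared. The genes past 2-fold were Chrne (3.91-fold), Chrng (3.85-fold), Chrna1 (3.01-fold), Chrnd (2.38-fold) and Ache (2.04-fold). Lrp4 was 1.91-fold higher. Rapsn was 1.58-fold lower, past the spot limit, and its log2 ratio of -0.66 was -1.40 with median scaling. The log2 ratios of Chrnb1 (0.34 ± 0.21), Dok7 (0.24 ± 0.21) and Musk (0.05 ± 0.22) were inside the limit and turned negative with median scaling, that of Musk also with normexp. The count of 2-fold higher genes was 2 of 10 with median scaling, beside 5.0% of all genes, and 2 of 10 with normexp correction, beside 4.04%. It was 3 of 10, beside 12.5%, when the ratio was the median over the probes of a gene. Chrne (0.98) and Chrng (0.97) were then just short of 2-fold on the log2 scale, with their second probes entered as bounds set to 0.

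The 4 second probes lay near or below background on the cellulate arrays and could not test the pattern of the brighter ones. Those of Chrna1 and Lrp4 stayed below that threshold on all 3 arrays; the Lrp4 one is listed under another transcript accession of the gene. The second probe of Chrng was well above background in myoblasts alone, with intensities of 16.5, 17.6 and 10.5 units in myoblasts, BIO cellulates and neurogenic cellulates. The second probe of Chrne was likewise above background in myoblasts alone, at 22.4, 17.6 and 23.0 units. These spots sat near the lowest signal well above background, 13.6, 17.3 and 26.2 units on the 3 arrays, and gave no fold. With the median over probes, these second probes entered as bounds set to 0. The log2 ratio to myoblasts in BIO cellulates was therefore 1.16 for Chrng and 1.07 for Chrne, lower than from the brighter probes alone. The lower values follow from that rule and not from a measured fold. The folds of Chrng and Chrne rest on 1 spot per array each.

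Dim genes were shifted towards the cellulate arrays as a whole, which bears on Chrna1 and Chrnd and on dim genes of the lists below. Such list genes include Erbb3 and Tmem35a, with log2 scaled signals of -3.21 and -3.25 in myoblasts. Genes below background on both arrays had a median log2 ratio of 1.01 in the first comparison, and the 1605 genes of the brightness of Chrna1 and Chrnd, each above background on both arrays, had a median of 0.28. Relative to that median, Chrna1 was higher by 1.30 and Chrnd by 0.94 on the log2 scale. The brighter genes Chrng and Chrne lay in a bin of 1266 genes with a median of -0.13, of which 4.74% were at least 2-fold higher, and exceeded that median by 2.44 and 2.27. Lrp4 exceeded its own, -0.17 over 1110 genes, by 1.22. Rapsn differed from the 835 genes of its brightness by -0.02. This setting, added after the values were seen, left 4 genes at least 2-fold higher in the first comparison (Chrng, Chrne, Chrna1 and Lrp4), with Ache at 0.96 and Chrnd at 0.94.

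Over the 9 alternative settings, the log2 ratio of Chrng in the first comparison ran from 1.16 to 2.48 and that of Chrne from 1.07 to 2.31, both past 2-fold in each. Chrna1 ran from 0.83 to 1.75 and Chrnd from 0.49 to 1.38. Lrp4 (0.34 to 1.23) and Ache (0.32 to 1.21) were positive in each but lay on either side of 2-fold. Rapsn was negative in each, from -0.93 to -0.02, and Dok7 positive, from 0.02 to 0.91.

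**Figure D3:**
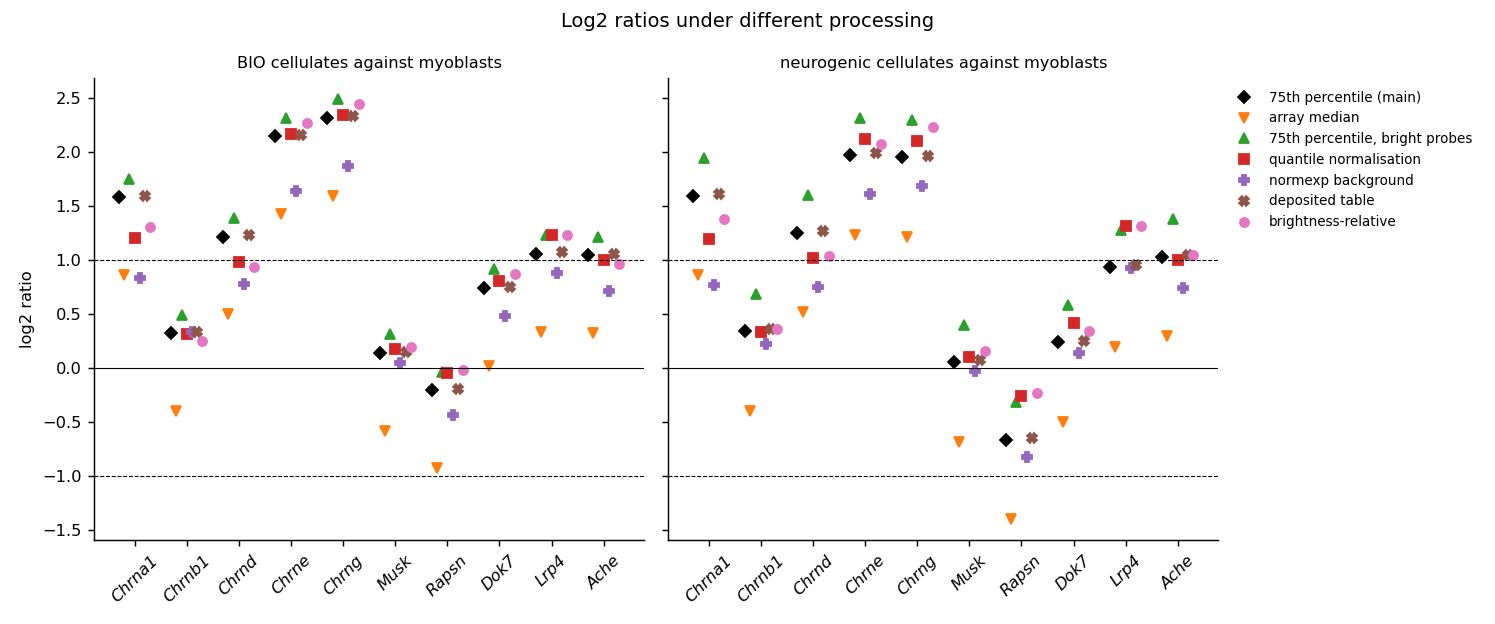
Log2 ratios of the 10 genes (y axis) under the main scaling and 6 of the alternatives, each symbol 1 setting, for BIO cellulates and for neurogenic cellulates against myoblasts, 1 array per group; dashed lines mark 2-fold. Chrne and Chrng lie above 2-fold under the settings drawn; the median over probes, not drawn, gives them 0.98 and 0.97 in the second panel. Scaling to the array median (orange) gives most genes their lowest value.

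**Figure D4:**
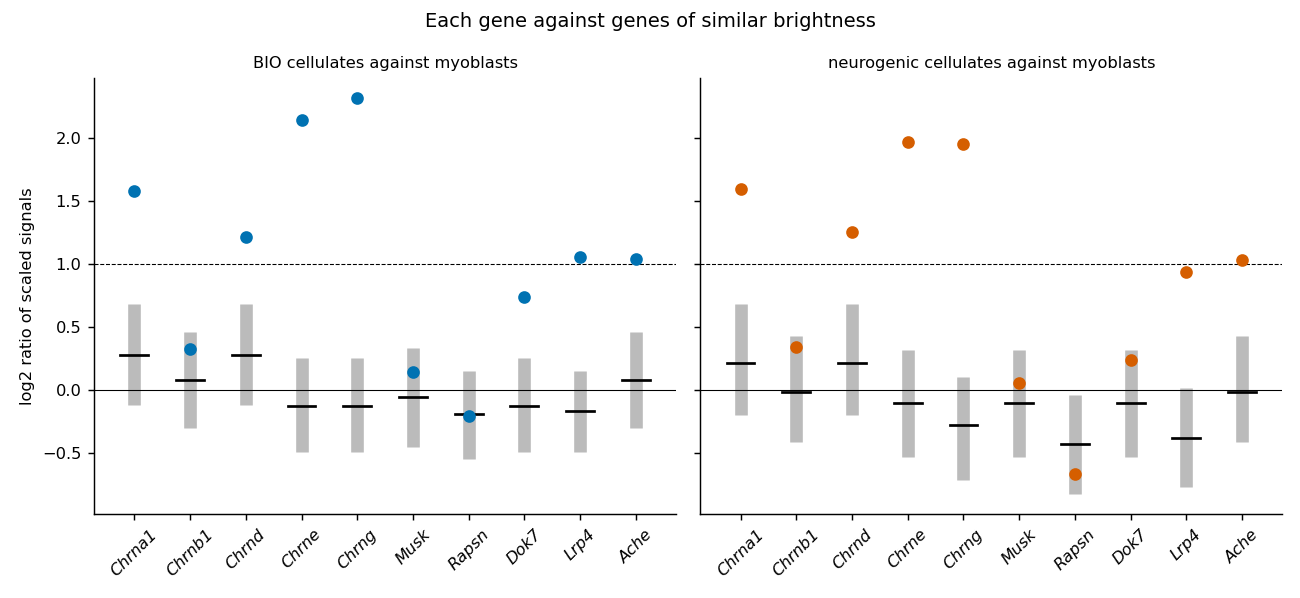
Log2 ratio of each of the 10 genes (coloured points) beside genes well above background on both arrays and within the same 1-unit bin of mean log2 scaled signal (black line, median; grey bar, the middle range between the lower and upper quartiles), for BIO cellulates and for neurogenic cellulates against myoblasts, 1 array per group; the dashed line marks 2-fold higher. Chrna1, Chrnd, Chrne, Chrng, Lrp4 and Ache lie above the grey bar in both panels and Dok7 in the first alone, while Chrnb1, Musk and Rapsn lie inside it.

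Genes that act with these 10 were read from lists chosen with earlier results of these data known. In the agrin and MuSK signalling list, 25 of 28 genes could be named on the array. In BIO cellulates against myoblasts 0 of 25 were higher by 2-fold or more and 1 was lower, beside 11.2% and 6.0% of all genes. The lower one was the cytoskeletal kinase gene Abl1 (2.09-fold), and the median log2 ratio was -0.05. In the second comparison the agrin gene Agrn was the 1 of 24 at least 2-fold higher (2.08-fold), after a log2 ratio of -0.66 in the first, and the kinase gene Pak1 the 1 lower (2.20-fold). Of all genes 4.14% were higher and 1.79% lower in that comparison. Against myoblasts, neurogenic cellulates had 0 of 25 higher and 5 lower, beside 12.1% and 10.0% of all genes. The largest of the lower ones were Pak1 (3.68-fold), the GTPase genes Rac1 (2.47-fold) and Cdc42 (2.28-fold) and the cortactin gene Cttn (2.06-fold). The list median there was -0.38, against -0.06 for all genes compared.

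The neuregulin and ETS list covers the pathway linked to receptor transcription at endplates. Erbb3, a neuregulin receptor gene dim in myoblasts, was the 1 of 10 compared genes at least 2-fold higher in BIO cellulates (2.49-fold), and 0 were lower. This is near the shares of all genes, 11.2% higher and 6.0% lower, and the median log2 ratio was -0.48. The ETS factor gene Gabpa, whose product binds the N-box, had a log2 ratio of -0.80, and its partner Gabpb1 of -0.98. In neurogenic against BIO cellulates Etv5, another ETS factor gene, was 2.34-fold higher, the 1 of 9 at least 2-fold different, beside 4.14% higher and 1.79% lower of all genes. Against myoblasts, neurogenic cellulates had 3 of 10 higher, Etv5 (2.71-fold), Erbb3 (2.10-fold) and Etv4 (2.10-fold), and 2 lower, the repressor gene Erf (2.19-fold) and Gabpb1 (2.07-fold). The shares of all genes there were 12.1% higher and 10.0% lower. Nrg1 was well above background in myoblasts alone, too dim to give a fold, and Erbb4 and Jun stayed below that threshold throughout.

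Among transcription factors and denervation-response genes, 1 of 11 compared was at least 2-fold different in BIO cellulates, beside 11.2% higher and 6.0% lower of all genes: Fbxo32, a ubiquitin ligase gene of muscle atrophy (2.81-fold higher). The list median was 0.40, against 0.00 for all genes. The myogenic factor genes Myog (0.31), Myod1 (0.36) and Myf6 (0.63) and the histone deacetylase gene Hdac4 (0.47), which acts in the denervation response, had log2 ratios below 2-fold. Between the cellulate arrays 1 of 13 was higher, beside 4.14% of all genes: the stress gene Gadd45a (at least 2.07-fold). In neurogenic cellulates Myog reached 2.18-fold above myoblasts and Fbxo32 3.61-fold. Gadd45a (at least 4.18-fold) and the atrophy ligase gene Trim63 (at least 3.50-fold), both dim on the other arrays, made up the 4 of 13 higher, beside 12.1% of all genes. Dach2, a repressor gene of this pathway, was not well above background on any array. Ncam1, the adhesion molecule that spreads over non-innervated fibres, had a log2 ratio of -0.61 for BIO cellulates against myoblasts, then of 0.71 between the cellulate arrays.

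In the wider postsynaptic apparatus, BIO cellulates had 3 of 26 compared genes higher by 2-fold or more and 4 lower, beside 11.2% and 6.0% of all genes, with a median log2 ratio of 0.10. The intermediate filament gene desmin (Des) was 12.2-fold higher, the laminin receptor gene Itga7 5.71-fold and the dystrobrevin gene Dtna at least 5.27-fold. The lower ones were the basement membrane genes Nid1 (2.51-fold) and Nid2 (2.36-fold), the nuclear anchor gene Syne2 (2.44-fold) and the utrophin gene Utrn (2.05-fold). In the second comparison Itga7 (2.30-fold) and Dtna (2.07-fold) were higher again, and Nid2 (3.69-fold) and the caveolin gene Cav3 (2.66-fold) were lower. Against myoblasts, neurogenic cellulates had 7 of 28 genes higher and 4 lower, beside 12.1% and 10.0% of all genes. Among the higher were Des at 18.5-fold, Itga7 at 13.1-fold, Dtna at 10.9-fold or more and Lama5 at 3.91-fold or more. Nid2 was 8.72-fold lower. Scn4a, the muscle sodium channel gene of the endplate, had log2 ratios of 0.06, -0.04 and 0.02 in the 3 comparisons.

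Genes for receptor assembly and glycosylation had a median log2 ratio of -0.21 over 14 compared genes in BIO cellulates. The receptor chaperone gene Tmem35a, dim in myoblasts, was 2.72-fold higher and Gfpt1, which encodes the entry enzyme of the hexosamine pathway, 2.16-fold lower. These were the 1 higher and 1 lower of 14, beside 11.2% and 6.0% of all genes. Gfpt1 was 3.05-fold lower in neurogenic cellulates than in myoblasts, and Ric3, another receptor chaperone gene, at least 3.58-fold higher by a spot dim on the other arrays. In the second comparison 0 of 15 passed 2-fold, beside 4.14% higher and 1.79% lower of all genes.

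Other cholinergic genes, 21 in all, were mostly dim: between 10 and 14 were well above background on an array. Of 15 compared, the nicotinic subunit genes Chrna4 (2.96-fold) and Chrna7 (at least 3.56-fold) were higher in BIO cellulates and the muscarinic receptor gene Chrm1 was 2.76-fold lower. These counts, 2 and 1 of 15, are near the shares of all genes, 11.2% and 6.0%. Chrna4, Chrna7 and Chrm1 were also the 3 genes past 2-fold in neurogenic cellulates against myoblasts, at 2.02-fold, at least 2.85-fold and 2.69-fold. The shares of all genes there were 12.1% higher and 10.0% lower. In the second comparison 0 of 11 were past 2-fold, beside 4.14% higher and 1.79% lower. Bche, which encodes the related butyrylcholinesterase, was not well above background on any array.

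**Figure D5:**
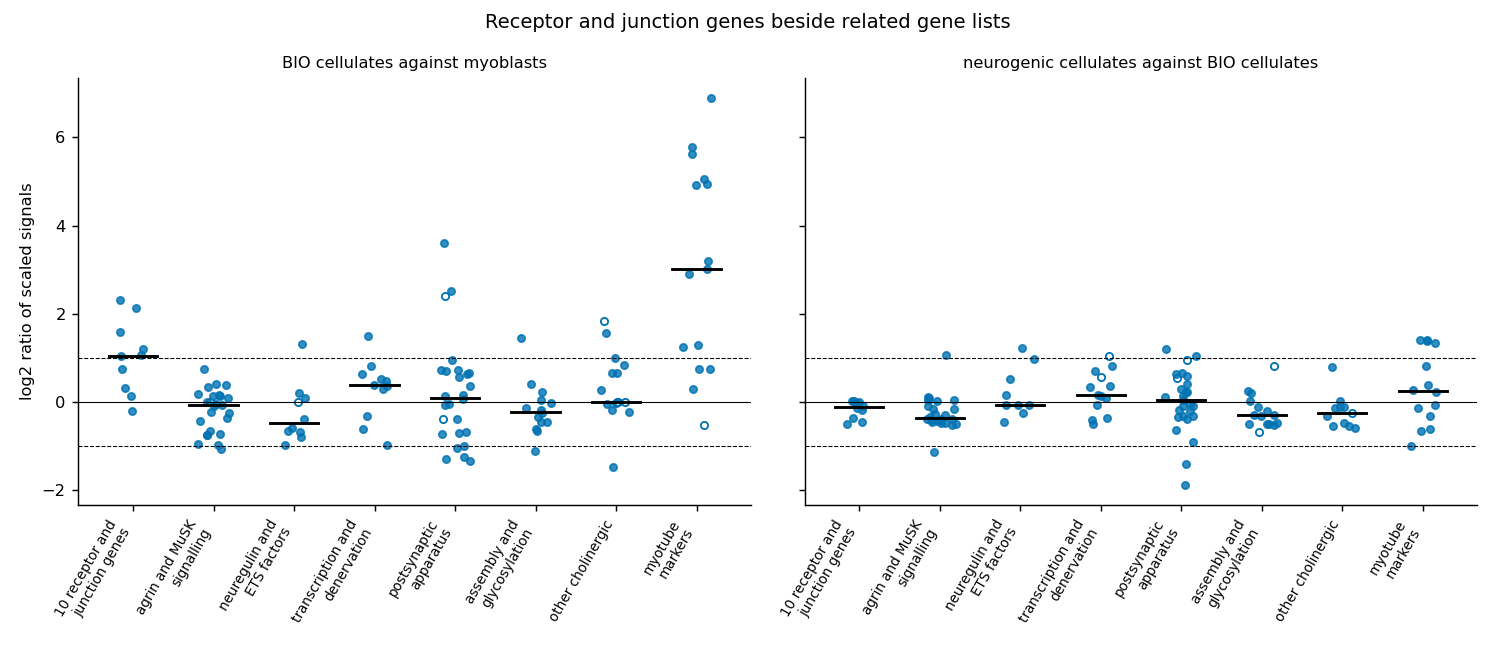
Log2 ratios (y axis) of the 10 genes and of the compared genes of each related list, with myotube markers last, for BIO cellulates against myoblasts and for neurogenic against BIO cellulates, 1 array per group; filled points were well above background on both arrays, open points are bounds, and black lines are medians. The 10 genes centre on 1.05 in the first panel and the myotube markers on 3.02, while every list centres between -0.36 and 0.25 in the second.

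Most markers of muscle differentiation were higher in the cellulates. All 15 myotube markers were well above background in myoblasts already and 14 on each cellulate array, and their summed scaled signal was 290 in myoblasts, 4101 in BIO cellulates and 3449 in neurogenic cellulates. In the first comparison 11 of 15 were at least 2-fold higher, beside 11.2% of all genes, with a median log2 ratio of 3.02, against 1.05 for the 10 genes. The fast troponin gene Tnnt3 was 119-fold higher, skeletal actin Acta1 54.9-fold and muscle creatine kinase Ckm 48.9-fold, each far beyond the 4.97-fold of Chrng. Others differed less, with log2 ratios of 0.31 for Myog, 0.76 for Myh2 and 0.76 for Myh4, and the slow myosin gene Myh7 was at least 1.42-fold lower. Of the myoblast markers Pax7, Myod1, Itga7, Cdh15 and Des were well above background on every array and Myf5 on none. Their summed scaled signals of 140, 87.2 and 89.4 were mostly Cdh15, which was 2.15-fold lower in BIO cellulates than in myoblasts. Des (12.2-fold), Itga7 (5.71-fold), Pax7 (1.66-fold) and Myod1 (1.29-fold) were higher there, and the list median was 0.74. The part of these markers in the receptor gene differences was not tested.

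Markers of nerve and glia went both ways. Among cholinergic motor neuron markers Chat, Slc18a3 and Lhx3 were well above background on every array, myoblasts included, while Slc5a7, Isl1 and Prph were so on none and Mnx1 could not be named. The summed scaled signal of this list was 0.655, 1.11 and 1.02 on the 3 arrays. Slc18a3, the vesicular transporter gene, was 2.11-fold higher in BIO cellulates than in myoblasts. It was the 1 of 3 compared that passed 2-fold, beside 11.2% higher and 6.0% lower of all genes. Pan-neuronal markers (6, 7 and 5 of 10 above background, Nefl and Snap25 on no array) summed to 11.2, 7.04 and 6.66, mostly from Tubb3 and Map2, which was 4.21-fold lower in BIO cellulates than in myoblasts. Dcx (at least 3.82-fold), Elavl3 (2.23-fold) and Stmn2 (2.03-fold) were higher there, and the median of 7 compared was 0.37. These counts, 3 higher and 1 lower of 7, stand beside 11.2% and 6.0% of all genes. Dcx, Elavl3, Stmn2 and Slc18a3 were dim in myoblasts, with log2 scaled signals of -3.99, -3.36, -2.93 and -3.38. The shift of dim genes towards the cellulate arrays, a median of 1.01 for genes below background on both, bears on them. Of 7 pan-neuronal markers compared between neurogenic cellulates and myoblasts, 1 was at least 2-fold higher in neurogenic cellulates and 1 lower. The higher one was Nefm (at least 4.59-fold), not well above background on the other arrays, and the lower one Map2 (2.32-fold). The median log2 ratio of this list there was -0.005, and the shares of all genes were 12.1% higher and 10.0% lower. Schwann and glial markers (5, 4 and 4 of 6) summed to 2.02, 2.06 and 1.78. Fibroblast markers (3 of 5 on each array) summed to 457, 193 and 145 with Pdgfra and Lum detected on none. Nearly all of that sum was the collagen gene Col1a1, 2.38-fold lower in BIO cellulates than in myoblasts, while Thy1 was 1.77-fold higher there and the decorin gene Dcn was 6.48-fold higher in neurogenic than in BIO cellulates. Of 3 adipocyte markers Plin1 alone was above background, with sums of 0.359, 0.461 and 0.531. The part of these cells in the results was not tested.

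The genes most like Chrna1 were found by the distance between their log2 ratios and its own in the first and second comparisons, over 3 arrays and 10668 genes well above background on all of them. The nearest outside the 10 were the AMP deaminase gene Ampd3, Spata9, the transcription factor subunit gene Gtf2h3, Bricd5 and Plac8l1, at distances of 0.017 to 0.058 on the log2 scale. Such distances are below the scanner errors of the Chrna1 ratios themselves (0.26 and 0.24), so the order among the nearest genes is not resolved. Of the 10 genes Chrnd came closest, at 0.36, with 176 genes nearer, followed by Ache at 0.54 with 398 nearer and Lrp4 at 0.54 with 400 nearer. Rapsn was the farthest, at 1.84, with 6781 genes nearer. With 3 arrays such distances describe these libraries and name no shared control.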

How the data were processed

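Expression was measured on 3 one-colour Agilent arrays, 1 per group, from 200 ng of Cy3-labelled RNA. Per the file headers, Feature Extraction 10.7.3.1 read array design 014868 (build mm9) and the authors deposited, per spot, a linear intensity after background subtraction, its error and median pixel intensities. The deposited value table is on the log2 scale: set beside the scanner values, every column is shifted from log2 intensity by a fixed amount, 0.00, 0.67 and 0.23, with column medians of 7.42, 7.77 and 7.88, is not centred by gene, and holds 0 columns of other samples; how the authors chose the shifts, near those of the 75th percentile (0.65 and 0.22), is unknown.

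Control spots and flagged outliers were dropped, and repeat spots averaged as log2. Each array was divided by the 75th percentile of its non-control spots (181, 115 and 156 intensity units). Accessions were matched without version to RefSeq's GRCm38.p6 table (26914 probes named, 14244 not), used for names only. A gene took its brightest probe, by the mean over the 3 arrays. A gene above background on 1 of 2 arrays entered as a bound, with the dim side set to its own signal or, if higher, the lowest one well above background; a bound under 1-fold was set to 0. Genes on neither array (5452, 6049 and 5414), or whose probes disagreed on background (69, 45 and 82), were left out. With 1 array per group no test was made; 2-fold is the call, and precision is limited by having 3 arrays. The ratio code was tested on simulated data. All 10 genes are named, and from each list at most the 4 largest 2-fold differences per direction and comparison; list genes within 2-fold (such as Agrn in the first comparison, Gabpa, Gabpb1, Myf6, Myod1, Hdac4, Ncam1 and Scn4a) were chosen after their values were seen. The genes, lists and rules were chosen with earlier results of these data known. The files have no mean spot signal, so normexp (limma 3.58.1, R 4.3.3, offset 50) used median signals. Other steps used Python 3.11.15, numpy 2.4.6 and pandas 2.3.3. In all, 8 alternatives were planned and 1, relative to brightness, added after seeing the data.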

Additional observations from a re-analysis of the deposited data

How the results depend on the processing

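The median of the 10 genes in BIO cellulates against myoblasts, 1.05 on the log2 scale, was 0.33 with arrays scaled to their median and 0.74 after normexp correction, and the count at least 2-fold higher, 6, was 2 under each. In neurogenic cellulates against myoblasts the median of 0.98 became 0.24, 1.33 and 0.74 with median scaling, with the percentile over probes well above background on all arrays and with normexp; the count higher, 5, became 2 with median scaling, 2 with normexp and 3 with the median over probes, and the count lower, 0, became 1 (Rapsn) with median scaling. Median scaling put the median of all genes at -0.66 and -0.79 in these comparisons, from 0.00 and -0.06, and relative to all genes the 10 stood at 0.99 and 1.04 under it. Since this scaling shifts all genes of an array by the same amount, that relative standing could hardly move and is no separate test. The share of higher genes among all called genes moved from 65.1% to 8.95% (median), 77.0% (bright-probe percentile), 50.5% (quantile) and 28.8% (normexp) in the first comparison, from 69.7% to 83.4% (bright-probe percentile) in the second, and from 54.7% to 11.3%, 78.9%, 56.6% and 31.0% in the third. All genes at least 2-fold higher and lower in the first comparison, 1439 and 770, were 365 and 3715 with median scaling and 297 and 735 with normexp. In the third, the 1557 higher genes became 643 with median scaling, 519 with normexp and 1617 with the median over probes. The 1291 lower genes there became 5036 with median scaling. Of 81 alternative values of counts and medians 70 stayed within the spot error or within 1.5-fold of the count, and of 270 single-gene values 58 moved by more than the spot error while 0 changed sign across a 2-fold call. Through all settings 6 of 10 genes kept their side of 2-fold in the first comparison, 10 in the second and 3 in the third. Chrne and Chrng were at least 2-fold higher in the first comparison under all 9 alternatives, and in the third under 8. For the median over probes, where their second probes entered as bounds set to 0, the third gave 0.98 and 0.97. The settings on dim probes could not move any of the 10 genes, and the deposited table holds the same signals under nearly the same scaling. The counts of unmoved values therefore include some that could not move. Chrna1 and Chrnd were dim in myoblasts. No paired analysis was possible because each group had 1 array.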
